A study of Homo sapiens with 8 samples.

Results

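The response to transfected miR-99a-3p was compared between PC3, a line of human prostate cancer cells from a metastasis in bone, and FaDu, a hypopharyngeal squamous cell carcinoma line. The members of the comparison were the genes measured in both lines, taken as those whose probe was free of outlier flags and well above background in all 4 channels of the 2 arrays, with each gene represented by its brightest probe. This held for 14882 of the 43317 genes on the array (34.4%). A gene was called raised when its log2 ratio of transfected over mock cells was over 1 and lowered when it was under -1. Genes raised in both lines and genes that moved in opposite directions outside the cell cycle are described below, because the cell cycle list itself dominated the opposite movement.

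The series holds 8 Agilent 2-colour arrays with 60-mer probes, 1 array for each condition. Each array paired mock cells, labelled with Cy3, with transfected cells of the same line, labelled with Cy5. PC3 cells received miR-100-3p, either strand of miR-150 (miR-150-3p and miR-150-5p) or miR-99a-3p. FaDu cells received miR-99a-3p or miR-99a-5p, and PANC-1 pancreatic cancer cells si-FOXQ1-1 or si-FOXQ1-2, siRNAs named for FOXQ1. The labels list the Cy3 cells as untransfected, and an array with a control miRNA was not analysed here, so the transfection reagent and the presence of any small RNA cannot be told apart from the sequence of miR-99a-3p. The dyes were never swapped, and dye and transfection therefore cannot be told apart either. With 1 array per condition there was no biological replicate and no test. Each ratio below carries the spot error that the scanner software gives, which covers the error of the spot only. The time after transfection at which the RNA was collected is not given in the sources used here.

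A microRNA guides a silencing complex to transcripts that pair with its seed, the bases near its 5′ end, and such transcripts are usually degraded or translated less. Each hairpin precursor yields a strand from either arm, and the strand that is discarded more often is called the passenger strand. miR-99a-3p comes from the 3′ arm of its precursor and is such a passenger strand, with a different seed, and so a different set of possible targets, from the guide strand miR-99a-5p. The mature sequences below are those of RefSeq, with bases 2 to 8 in capitals, and are shown because the seed sets which transcripts can pair with the transfected RNA. miR-99b-3p is shown because it has the same seed and miR-100-3p because it is the closest relative that was also transfected.
hsa-miR-99a-3p: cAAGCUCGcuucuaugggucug
hsa-miR-99b-3p: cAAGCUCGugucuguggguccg
hsa-miR-100-3p: cAAGCUUGuaucuauagguaug
hsa-miR-99a-5p: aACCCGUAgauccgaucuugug
miR-99a-3p lies on chromosome 21 at 16539138 to 16539159 of the plus strand in GRCh38.p14. Within the seed, miR-100-3p differs from it by C7U, counted from the 5′ end of miR-99a-3p, which changes the 6-base match in a transcript from GAGCTT to AAGCTT.

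The mock channels were set against markers of each line. Both probes of CTNNA1, a gene that PC3 is known to have lost, were below background in mock PC3 and above it in mock FaDu, and both probes of SMAD4, lost in FaDu, showed the reverse. HOXB13, a prostate homeobox gene, had a mock signal of 64843 in PC3 and 163 in FaDu. KRT5, KRT14, KRT17, KRT6A, TP63 and DSG3, which mark basal squamous epithelium, were above background in mock FaDu and not in mock PC3. KRT15, SFN and PKP1, fixed as FaDu markers, were above background in both. COL1A2, COL3A1, DCN, LUM and CD3E, markers of fibroblasts and leukocytes, were not well above background in either. COL1A1, PDGFRB (PC3 only), CD14 and 1 of 5 PTPRC probes were above background. The median log2 ratio over the 14882 genes was 0.04 in PC3 and 0.02 in FaDu, and the median spot error was 0.21 in both.

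The responses of the lines to miR-99a-3p had little in common over the genes as a whole. In PC3, 444 genes were raised (2.98% of those measured) and 626 lowered (4.21%). In FaDu, 1098 were raised (7.38%) and 759 lowered (5.1%). Raised in both were 91 genes (0.611%), which is 20.5% of the genes raised in PC3 and 8.29% of those raised in FaDu. Lowered in both were 51 genes (0.343%), which is 8.15% of the genes lowered in PC3 and 6.72% of those lowered in FaDu. The genes lowered in PC3 were more often raised in FaDu than lowered there, with 130 genes (0.874% of those measured, and 20.8% of those lowered in PC3). Conversely, 28 genes (0.188%) were raised in PC3 and lowered in FaDu, which is 6.31% of those raised in PC3. That share is near the 5.1% of all genes that were lowered in FaDu. Across the 14882 genes Pearson's r between the lines was 0.0031 and Spearman's coefficient 0.027. The points share the array design, the slide and the dye orientation, and genes are not independent replicates. With normexp background correction and loess in place of the scanner's steps, 35 genes were raised and 31 lowered in both lines, so that the raised share of these shared changes was 53% in place of 64.1%. All 91 raised and all 51 lowered genes kept their directions under that correction.

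Cell cycle genes supplied most of the genes lowered in PC3 and raised in FaDu. On a broad list of cell cycle and DNA replication genes, 604 were measured, with a median log2 ratio of -0.81 in PC3 and 0.54 in FaDu. Of the 130 opposite genes, 85 were on this list (65.4%, where the list made up 4.06% of the genes measured), among them E2F2 (-3.08 in PC3 and 2.39 in FaDu), a transcription factor of the G1 to S transition, and CCNE2 (-2.60 and 2.27), a cyclin of the same step. None of the 28 genes of the other direction was on it. Within the list r was -0.39 over 604 genes, and outside it 0.09 over 14278 genes. With these genes set aside, 45 genes were lowered in PC3 and raised in FaDu (0.315% of the 14278) and 28 raised in PC3 and lowered in FaDu (0.196%). In RNA from whole cultures, fewer dividing cells and less of these RNAs per cell cannot be told apart. The cell cycle genes are not followed further here.

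**Figure D1:**
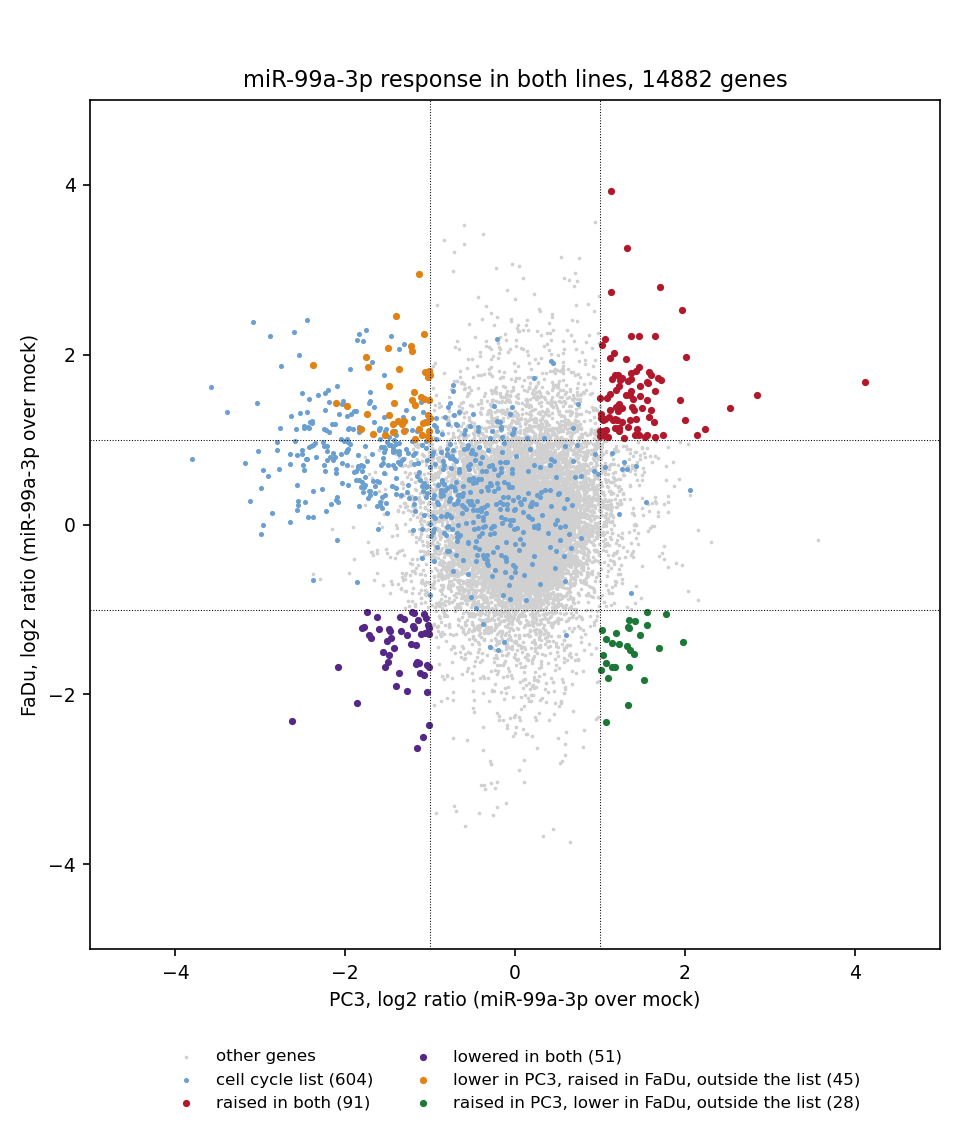
Log2 ratio of miR-99a-3p over mock cells in PC3 (horizontal axis) and FaDu (vertical axis) for the 14882 genes measured in both lines, 1 point per gene; dotted lines mark ratios of 1 and -1. Cell cycle genes fill the upper left, where 85 of the 130 genes lowered in PC3 and raised in FaDu lie, while 91 genes sit in the upper right and 51 in the lower left.

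The 91 genes raised in both lines had median log2 ratios of 1.33 in PC3 and 1.47 in FaDu. The first in order was a matrix gene. PXDN, which encodes peroxidasin, an enzyme that cross-links collagen IV, had a signal of 14276 in mock and 57511 in transfected PC3 cells, and of 2007 and 7905 in FaDu. Its log2 ratio was 2.01 ± 0.28 (spot error) in PC3 and 1.98 ± 0.27 in FaDu, the highest pair of ratios of any gene when genes are ordered by the lower of the 2 values. A further PXDN probe gave 2.01 and 2.16. PXDN thus moved by nearly the same amount in both lines, and on the other 6 arrays its ratio lay between -0.27 and 0.80.

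Collagen genes moved with PXDN. COL4A1 and COL4A2 encode the chains of the collagen IV of basement membranes. The ratio of COL4A2 was 1.46 in PC3 and 2.23 in FaDu, and that of COL4A1 was 1.39 and 1.48. COL1A1, a chain of fibrillar collagen I, had a ratio of 2.84 ± 0.33 in PC3 and 1.53 ± 0.28 in FaDu, and COL5A1, a chain of collagen V, 2.53 ± 0.31 and 1.37 ± 0.24. For both of these fibrillar chains the difference between the lines, 1.32 and 1.16, was larger than its combined spot error of 0.44 and 0.39. The COL1A1 spot was dim in mock FaDu cells, with a signal of 65.6 against 588 in mock PC3 cells. On the other 6 arrays COL1A1 lay between -1.18 and 0.54, while COL4A1 reached 1.05 with si-FOXQ1-1 in PANC-1 cells.

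Over the whole list of collagen and extracellular matrix genes, 28 of 46 with a probe were measured, with a median log2 ratio of 0.85 in PC3 and 0.30 in FaDu, against 0.04 and 0.02 over all genes. In PC3, 10 of the 28 were raised (35.7%, against 2.98% of all genes) and 1 lowered (3.57% against 4.21%). In FaDu 9 were raised (32.1% against 7.38%) and 3 lowered (10.71% against 5.1%). The 4 collagens above were raised in both lines, and LAMB3, a laminin chain of epithelial basement membranes, was lowered in both (-1.04 and -1.66). The remaining raised genes differed between the lines. COL5A2 (1.65 and 0.28), LAMC1 (1.65 and 0.32) and COL7A1 (1.22 and -0.39) passed 1 in PC3 only, and COL18A1 (0.94 and 1.73), LAMB1 (0.27 and 1.66) and COL8A1 (-0.72 and 3.21) in FaDu only. LOXL4, a lysyl oxidase that cross-links collagen, went opposite ways (1.07 and -1.63). The median of the list on the other 6 arrays was between -0.15 and 0.14.

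Several genes raised in both lines handle extracellular nucleotides and thyroid hormone. ENTPD2, a surface enzyme that hydrolyses extracellular ATP, had a ratio of 1.96 ± 0.28 in PC3 and 2.52 ± 0.31 in FaDu. NT5E, also known as CD73, which turns extracellular AMP into adenosine, had 1.13 ± 0.23 and 3.93 ± 0.42, and its further probe 0.84 and 2.39. DIO3, the deiodinase that inactivates thyroid hormone, had 1.47 in PC3 and 1.52 in FaDu, where its mock signal of 36.0 was close to the lowest signal well above background on that array (30.01). Its neighbour DIO3OS had 1.46 and 1.06, and TG, the thyroglobulin gene, 1.21 and 1.76, although TG was dim in the mock cells of both lines (48.1 and 40.2). These genes were chosen from among the 91 after their values were seen, and no list of these pathways was tested.

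DICER1, the nuclease that cuts microRNA precursors, was the only member of a list of 22 microRNA processing genes raised in both lines (against 0.611% of all genes). Its signal went from 917 to 3009 in PC3 and from 2232 to 7245 in FaDu, which gave ratios of 1.71 ± 0.26 and 1.70 ± 0.26. DICER1 also had a ratio of 1.08 with miR-150-5p in PC3, and its other 5 arrays lay between 0.08 and 0.79. The median of the list was 0.18 in PC3 and 0.13 in FaDu.

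The genes in this paragraph were picked for a role in transcription or signalling, and neither was counted over the 91. STAT4, a factor which acts downstream of interleukin receptors, had ratios of 1.56 in PC3 and 1.67 in FaDu. From the HOXA cluster, HOXA9 (1.42 and 1.05), HOXA11 (1.22 and 1.42) and HOXA11-AS (1.36 and 1.23) were raised in both lines, and the further probe of HOXA11-AS gave 1.28 and 1.25. The 3 further probes of HOXA9 gave 1.57 and 1.38, 0.89 and 0.57, and 0.80 and 0.30. LFNG, a glycosyltransferase that modifies Notch receptors, had 1.69 and 1.72, but its further probe gave 0.46 and 0.42. VAV3, an activator of small GTPases, had 1.56 and 1.68. IGF1R, the receptor for insulin-like growth factor 1, had 1.42 and 1.81. It was the only one of 27 measured genes of mTORC1 and IGF signalling raised in both lines, where 0.611% of all genes were. In FaDu 4 of the 27 were raised (14.8%, against 7.38% of all genes) and 2 lowered (7.41% against 5.1%). In PC3 1 was raised (3.70% against 2.98%) and 2 lowered (7.41% against 4.21%).

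Of the other genes among the leading 12, FAM198B (now GASK1B) had the highest PC3 ratio of all 91, 4.12 ± 0.44 against 1.68 ± 0.37 in FaDu, from mock signals of 42.9 and 37.5 that are both close to background. It was also raised with miR-150-3p in PC3, at 2.79. NREP had ratios of 1.65 and 2.22, and ARRDC4, an alpha-arrestin, 1.60 and 1.77. HIST1H2BK (now H2BC12), a histone H2B gene, had 1.65 and 1.57. It was the only one of the 604 cell cycle genes to be raised in both lines (against 0.611% of all genes). Below the leading 12, HMGA2, an architectural chromatin factor, had 3.25 in FaDu and 1.32 in PC3. Its 2 further probes gave 0.14 to 0.20 in PC3 and -0.16 to 0.53 in FaDu, so that the movement of HMGA2 rests on a single probe.

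For 51 of the 91 genes the difference between the lines was smaller than the combined spot error. Dim spots were frequent among them, since 36 had a mock signal under 100 in at least 1 line, 31 of them in FaDu. Of 28 further probes to 24 of these genes, 16 had a positive ratio in both lines and 5 passed 1 in both, those of PXDN, TMEM64, GATSL3, HOXA9 and HOXA11-AS. The genes just inside the threshold were CPE (1.00 and 1.04) and ASB13 (1.00 and 1.496), and those just outside it WISP2 (0.9958 in PC3) and LGR4 (0.9917). On each of the other 6 arrays 55 of the 91 stayed within 1 of 0, or 60.4%, against 91.1% of all genes measured. Less the mean of the other arrays of the same line, 34 of the 91 were still raised in both.

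**Figure D2:**
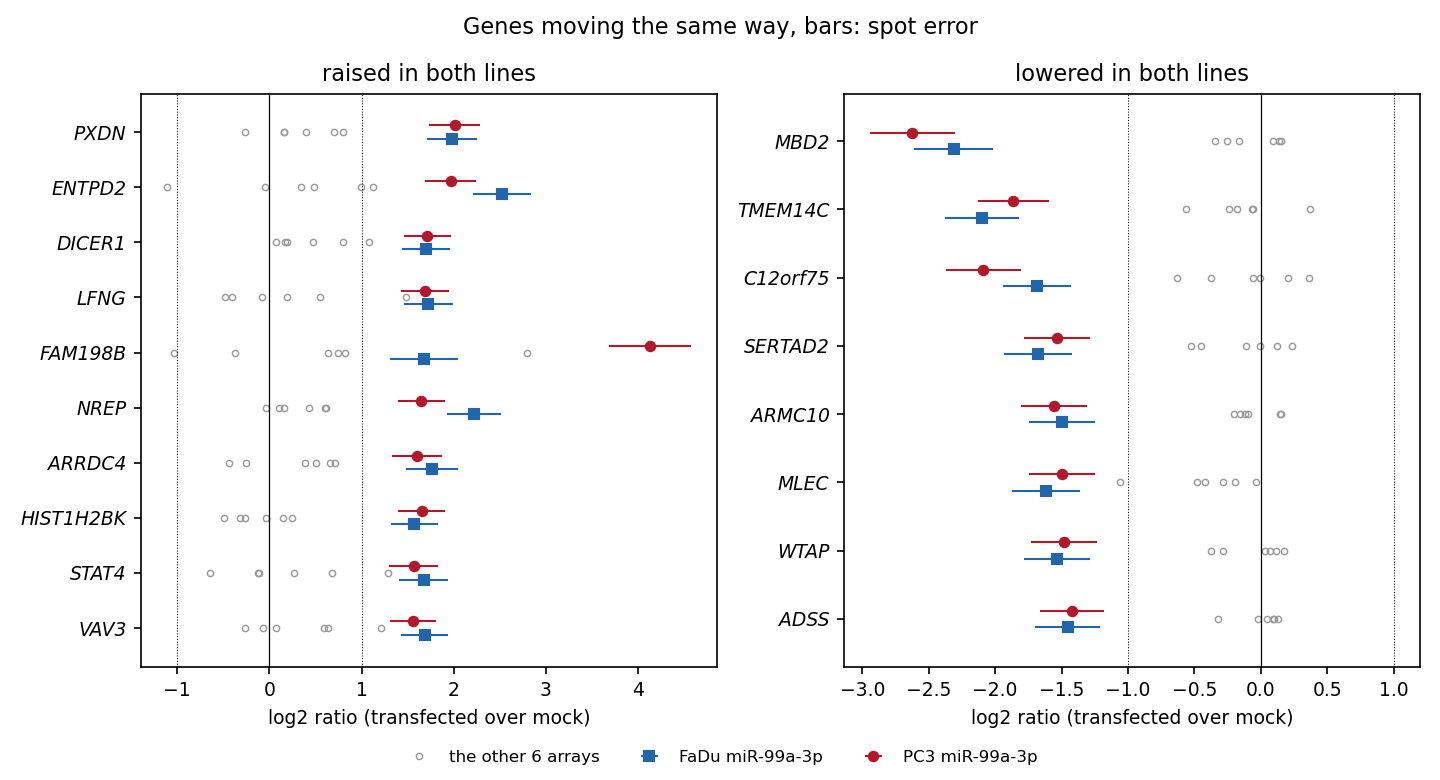
Log2 ratios of 10 of the leading genes raised in both lines (left) and the 8 leading genes lowered in both (right), with filled symbols for the arrays with miR-99a-3p in PC3 and FaDu, bars for the spot error and open circles for the other 6 arrays. The filled symbols of a gene lie close together for most genes, except FAM198B, and apart from the open circles for most of the lowered genes.

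The 51 genes lowered in both lines had median ratios of -1.28 in PC3 and -1.34 in FaDu. On each of the other 6 arrays 43 of them stayed within 1 of 0, or 84.3%, against 91.1% of all genes measured. Less the mean of the other arrays of the same line, 24 of the 51 were still lowered in both. None had a mock signal under 100 in either line. Ordered by the higher of the 2 ratios, the lowest was MBD2, a protein that binds methylated DNA and recruits repressor complexes. Its signal was 8771 in mock and 1425 in transfected PC3 cells, and 6075 and 1224 in FaDu. The ratios were -2.62 ± 0.32 and -2.31 ± 0.30, and those on the other 6 arrays lay between -0.34 and 0.15.

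TMEM14C, a mitochondrial membrane protein needed for haem synthesis, had ratios of -1.86 and -2.10, and its further probe -2.50 and -3.07. WTAP, a subunit of the complex that methylates adenosine in mRNA, had -1.48 and -1.53, while its 2 further probes lay between -0.28 and -0.05 in PC3 and between -1.02 and 0.14 in FaDu. ADSS (now ADSS2) and IMPDH2, which act on the adenine and guanine branches of purine synthesis, had -1.42 and -1.45, and -1.31 and -1.11. Below the leading 8, AGPAT9 (now GPAT3), which makes lysophosphatidic acid, had -1.40 and -1.90, and RBM3, a cold-induced RNA-binding protein, -1.51 and -1.38. C12orf75 (-2.09 and -1.68), SERTAD2 (-1.53 and -1.68), ARMC10 (-1.56 and -1.498) and MLEC (-1.50 and -1.62) were also of the leading 8, MLEC being a sugar-binding protein of the endoplasmic reticulum. Of 20 further probes to 16 of the 51 genes, 16 were negative in both lines and 8 passed -1 in both. Just inside the threshold lay CANX, the chaperone calnexin (-1.01 and -2.36), and AREG, a ligand of the EGF receptor (-1.02 and -1.22), and just outside it MRPL48 (-1.30 and -0.98) and ARPC1B (-1.02 and -0.97).

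The 6-base match to the seed of miR-99a-3p was looked for in the probe sequences, which follow the transcript, since the polyadenylation signal AATAAA was in 8.25% of the measured genes' probes and its reverse complement in 3.94%. A probe covers only 60 bases of a transcript, so most matches in a transcript lie outside it. GAGCTT was in 251 of the 14882 probes (1.69%), in 5 of the 51 genes lowered in both lines (9.80%) and in 0 of the 91 raised in both. It was also in 2 of the 45 genes outside the cell cycle list that were lowered in PC3 and raised in FaDu (4.44%). Its reverse complement AAGCTC was in 1.72% of all the probes, in 1 of the 51 (1.96%), in 1 of the 45 (2.22%) and likewise in 0 of the 91. The 5 genes with GAGCTT lowered in both were MBD2, AGPAT9, C1orf43, KIAA1522 and CHRAC1. For the 4 genes below, 30 bases of the probe are printed with the match in capitals, to show where the seed could pair.
MBD2: taagatgaagctGAGCTTttgatgccaggt
AGPAT9: gtaacaaaGAGCTTagttttccttgtttga
C1orf43: tatccagagttcttaGAGCTTgtgtctaaa
KIAA1522: ggtaaatGAGCTTgacctagagtaaatgga
On hg19 these stretches are at chr18:51681418-51681447 on the minus strand, chr4:84526584-84526613 on the plus strand, chr1:154179771-154179800 on the minus strand and chr1:33240353-33240382 on the plus strand. Whether they lie in a coding or an untranslated part of the transcript was not looked up, since an annotation of that build was not used here. The ratios in PC3 and FaDu were -1.40 and -1.90 for AGPAT9, -1.19 and -1.22 for C1orf43, and -1.02 and -1.18 for KIAA1522.

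Over all 251 genes whose probe held GAGCTT, the median log2 ratio was -0.18 in PC3 and -0.18 in FaDu. The difference from the median of the other genes was -0.23 in PC3 and -0.20 in FaDu. In PC3 64.9% of them had a ratio under 0, against 46.1% of the genes without it, and in FaDu 60.6% against 48.8%. On the other 6 arrays the difference was between -0.06 and -0.0006. For the reverse complement AAGCTC, which a seed cannot pair with, it was -0.02 in PC3 and -0.06 in FaDu. For AAGCTT, the match to miR-100-3p, it was -0.06 in PC3 and 0.0022 in FaDu, and -0.11 on the array with miR-100-3p in PC3. The genes with the miR-99a-3p match were thus lower by a similar amount in both lines, while the responses over all genes had little in common.

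**Figure D3:**
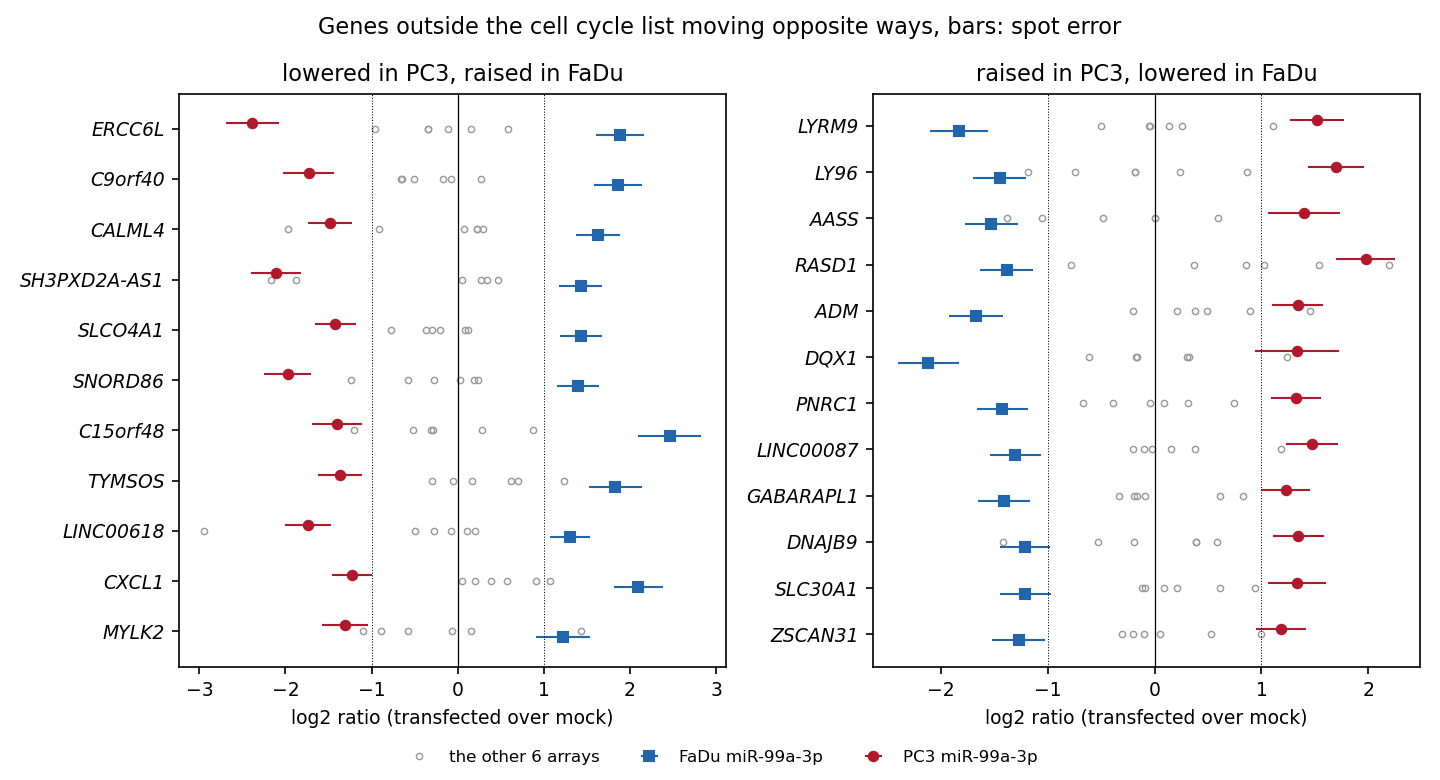
Log2 ratios of the leading genes (11 on the left and 12 on the right) that moved opposite ways outside the cell cycle list, with filled symbols for the arrays with miR-99a-3p in PC3 and FaDu, bars for the spot error and open circles for the other 6 arrays. In each row the filled symbols lie on opposite sides of 0 and beyond 1, and for 8 rows on the left and 8 on the right at least 1 open circle also lies beyond 1 or -1.

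The 45 genes lowered in PC3 and raised in FaDu outside the cell cycle list had median ratios of -1.21 and 1.40. The leading gene was ERCC6L, a DNA helicase of mitotic chromatin bridges that was not on the list although its known role is mitotic. Its signal was 592 in mock and 113 in transfected PC3 cells, and 125 and 461 in FaDu. The ratios were -2.38 ± 0.31 and 1.88 ± 0.27, with a difference of -4.27 ± 0.41 (PC3 minus FaDu), the largest of any gene outside the list in that direction. WDR62, a spindle pole protein (-1.67 and 1.07), is also known for a role in mitosis. TYMSOS (-1.37 and 1.83) is transcribed from the strand opposite TYMS, a gene of the list. The list thus did not hold every gene with a known role in division, and with the narrow list of 88 measured cell cycle genes 101 in place of 45 genes counted as outside.

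Some of the 45 encode secreted signals or proteins of the cell surface, and those named next were picked after their values were seen. CXCL1, a chemokine that attracts neutrophils, had a signal of 6937 in mock and 2959 in transfected PC3 cells, and of 2883 and 12349 in FaDu. Its ratios were -1.23 ± 0.23 and 2.10 ± 0.28, and it was also raised with miR-99a-5p in FaDu, at 1.08. LIF, a cytokine of the interleukin 6 family, had -1.001 and 1.26, and PLAU, the urokinase plasminogen activator, -1.18 and 1.01. NMU, the neuropeptide neuromedin U, had -1.81 and 1.13, and HAS3, a hyaluronan synthase, -1.11 and 1.504. The further probes of CXCL1, PLAU and HAS3 gave -0.87 and 1.44, -0.87 and 0.79, and -0.81 and 0.16.

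Of 21 measured genes on the list of NF-kappaB signalling and chemokines, 3 were opposite (CXCL1, LIF and PLAU; 14.3%, against 0.874% of all genes). In PC3 5 were lowered (23.8% against 4.21%) and 0 raised. In FaDu 3 were raised and 3 lowered (14.3% each, against 7.38% and 5.1%). The members went both ways, and the list medians were -0.22 in PC3 and 0.05 in FaDu. In FaDu CXCL3 (-2.08), the A20 gene TNFAIP3 (-1.14) and TNFRSF9 (-2.21) were lowered while CXCL1 was raised.

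Other genes of this direction were SLCO4A1, an organic anion transporter (-1.42 and 1.43), TAP2, a subunit of the peptide transporter for antigen presentation (-1.53 and 1.06), and PDSS1, an enzyme of ubiquinone synthesis (-1.37 and 1.22). The RNA genes SH3PXD2A-AS1 (-2.11 and 1.43), LINC00618 (-1.74 and 1.30) and SNORD86, a small nucleolar RNA (-1.98 and 1.40), were among the leading 12, as were C9orf40 (-1.73 and 1.86), C15orf48 (-1.40 and 2.46), CALML4 (-1.48 and 1.63) and MYLK2, a myosin light chain kinase (-1.31 and 1.22). SH3PXD2A-AS1 was also lowered with miR-150-3p in PC3 (-2.17) and with si-FOXQ1-2 in PANC-1 cells (-1.87), LINC00618 with miR-150-3p (-2.94), and MYLK2 was raised with miR-99a-5p in FaDu (1.43), so that its FaDu ratio was -0.21 less that array. For CYTH4 the FaDu ratio of 2.96 ± 0.38 rests on a mock signal of 36.9. Of the 45 genes, 28 stayed within 1 of 0 on each of the other 6 arrays (62.2%, against 91.1% of all genes measured). All 5 further probes had the same directions, 1 of them past 1 in both lines. The genes nearest the threshold were LIF and ANO1 (-1.003 in PC3) inside it, and KRT32 (-0.99) and HSP90AA1 (-0.97) outside it.

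The promoters of this class were read from the RefSeq table of GRCh38.p14, 250 bases before to 50 after each gene start. A motif of E2F factors, which drive cell cycle genes, was searched as TTTCCCGC, TTTGGCGC, TTTCGCGC or TTTGCCGC on either strand. It was in 3.33% of all 27305 promoters and in 5.33% of those of the measured genes found in the table. It was in 18 of 74 promoters (24.3%) of the opposite genes on the cell cycle list in 2 of 66 (3.03%) of the genes raised in both lines and in 3 of 37 (8.11%) of those lowered in both. For the opposite genes higher in PC3 it was in 2 of 21 (9.52%). Among the 45 opposite genes outside the list, 29 promoters were found and 5 held it (17.2%). These are printed with the motif in capitals, on the strand of the gene, because they mark the members of the class that share this sequence with the cell cycle genes.
LRR1: aagggaagccgTTTCCCGCgggcttcatac
SP5: atgattgggtaGCGGCAAActtcaaagcca
EMC3-AS1: cgtcgggcctgGCGGGAAAgtggaaaacta
WDR62: gtggcgccggcTTTCCCGCggctgttcgct
OAS3: cggagagccggGCGGGAAAacgaaaccaga
In GRCh38.p14 the windows are at chr14:49598835-49598864, chr2:170715233-170715262, chr3:9986895-9986924, chr19:36054870-36054899 and chr12:112938447-112938476, all on the plus strand. A match of these letters is a description and not a bound site. LRR1 had ratios of -1.21 and 1.46, SP5, a zinc finger factor of the Wnt pathway, -1.13 and 1.12, and EMC3-AS1 -1.07 and 1.47.

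OAS3, a sensor of double-stranded RNA, had -1.02 in PC3 and 1.74 in FaDu. It was the only opposite gene on the list of interferon response genes, where 0.874% of all genes were opposite in this direction. Over the 37 measured genes of that list the PC3 median was -0.16 and the FaDu median 0.70. In FaDu 12 were raised (32.4%, against 7.38% of all genes) and 1 lowered (2.70% against 5.1%), led by IFIT3 (2.68), OAS2 (2.28) and RSAD2 (2.23), all induced by interferon. In PC3 1 was raised, BST2 (1.65), and 3 were lowered (2.70% and 8.11%, against 2.98% and 4.21% of all genes). On the other arrays the list went both ways. Its median was 0.26 for miR-99a-5p in FaDu and 1.87 for miR-150-3p in PC3, where 31 of the 37 were raised. It was -0.26 for miR-150-5p and -0.26 for miR-100-3p in PC3, and -0.02 and -0.20 for si-FOXQ1-1 and si-FOXQ1-2 in PANC-1 cells. Less the miR-99a-5p array, the FaDu median was 0.18.

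The 28 genes raised in PC3 and lowered in FaDu had median ratios of 1.33 and -1.42. They were 6.31% of the genes raised in PC3, near the 5.1% of all genes that were lowered in FaDu. The roles named below were picked after the values were seen and were not counted over the 28. Stress and autophagy genes were among them. ERN1, the IRE1 sensor of unfolded protein in the endoplasmic reticulum, had a signal of 1831 in mock and 3918 in transfected PC3 cells, and of 2245 and 644 in FaDu, which gave ratios of 1.10 ± 0.23 and -1.80 ± 0.26. DNAJB9, a chaperone of the same compartment, had 1.34 and -1.21. GABARAPL1, a protein of the autophagosome membrane, had 1.23 and -1.41, and ZFYVE1, which marks sites of autophagosome formation, 1.01 and -1.72.

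Other members of the 28 respond to hormones or to low oxygen. TSC22D3, the glucocorticoid-induced leucine zipper, had 1.07 ± 0.23 and -2.33 ± 0.30, and RASD1, a small GTPase induced by dexamethasone, 1.98 ± 0.27 and -1.39 ± 0.25. RASD1 was also raised with miR-150-5p in PC3 (2.19), miR-99a-5p in FaDu (1.02) and si-FOXQ1-1 in PANC-1 cells (1.54). ADM, the vasodilator peptide adrenomedullin, had 1.34 and -1.67, with 1.45 for miR-150-3p in PC3. It was the only opposite gene of 37 measured genes of glycolysis and hypoxia, where 0.188% of all genes were opposite in this direction. The medians of that list were 0.01 and -0.11. The FaDu median was -0.43 less the miR-99a-5p array, and 7 of the 37 were lowered in FaDu (18.9%, against 5.1% of all genes).

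Lipid and amino acid handling gave further members. VLDLR, a lipoprotein receptor, had 1.41 and -1.13, and ABCA1, a cholesterol exporter, 1.08 and -1.34. AASS, which starts lysine breakdown, had 1.40 and -1.53, and ALDH6A1, an enzyme of valine breakdown, 1.14 and -1.67. LY96, the partner of the toll-like receptor TLR4, had 1.70 and -1.45, and SLC30A1, a zinc exporter, 1.33 and -1.21. LYRM9 (1.52 and -1.83), DQX1 (1.33 and -2.12), PNRC1, a nuclear receptor coactivator (1.32 and -1.43), LINC00087 (1.47 and -1.30) and ZSCAN31, a zinc finger gene (1.18 and -1.27), completed the leading 12. A mock signal under 100 in PC3 was found for 9 of the 28 genes, DQX1 (36.2) and AASS (54.9) included. On each of the other 6 arrays 15 of the 28 stayed within 1 of 0 (53.6%, against 91.1% of all genes measured). Of 7 further probes 6 had the same directions and 2 passed 1 in both lines. The exception was a LINC00087 probe, with 0.01 in PC3 and 0.03 in FaDu, while another LINC00087 probe gave 1.34 and -0.996. Nearest the threshold were ZFYVE1 inside it, and C1orf116 (1.37 and -0.99) and DSC3 (0.99 and -1.84) outside it.

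Around ERN1 and DNAJB9, the genes of the integrated stress response and of the unfolded protein response had the largest median difference between the lines of the lists described here, the cell cycle lists apart. ATF4 is a transcription factor that is translated when cells lack amino acids or accumulate unfolded protein, and it turns on genes of amino acid supply. IRE1 and ATF6 turn on chaperones of the endoplasmic reticulum. Of 38 measured genes of this list 34 were lowered in FaDu (89.5%, against 5.1% of all genes) and 0 raised (against 7.38%), with a median of -1.77. In PC3 2 were lowered (5.26%, against 4.21% of all genes) and 2 raised, DNAJB9 and VLDLR (5.26% against 2.98%). These PC3 shares are near those of all genes, and the PC3 median was -0.02. The median over all genes was 0.02 in FaDu and 0.04 in PC3.

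DDIT3, the stress transcription factor CHOP, was the lowest of the list in FaDu, with -3.67 ± 0.40 against 0.32 ± 0.21 in PC3. The difference of 3.99 was among the largest of any gene outside the cell cycle list. HERPUD1, of the degradation pathway of the endoplasmic reticulum, had -3.37 in FaDu and -0.69 in PC3, and TRIB3, a pseudokinase induced by ATF4, -3.04 and -0.29. ATF4 itself had -1.36 and -0.05.

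Genes of amino acid supply and chaperones were both among those lowered in FaDu, but the branches were not counted apart. The genes named next were picked from the list. Among genes of amino acid supply, ASNS, the asparagine synthetase, had -2.82 in FaDu and -0.29 in PC3, and SLC7A11, the cystine transporter, -1.89 and 0.12. CHAC1, which degrades glutathione, had -2.71 and 0.59. Among chaperones, HSPA5, the main HSP70 of the endoplasmic reticulum, had -1.93 and -0.12, PDIA4 -2.53 and -0.57 and HYOU1 -2.01 and 0.21. XBP1, a transcription factor whose mRNA is spliced by IRE1, had -1.67 and 0.12. Those not lowered in FaDu were EDEM1 (-0.82), SLC7A1 (-0.72), CALR (-0.61) and PSPH (-0.37). MTHFD2, of mitochondrial folate metabolism (-1.13 in PC3 and -1.63 in FaDu), and SLC7A5, a transporter of large amino acids (-1.35 and -1.25), were lowered in both lines.

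On the array with miR-99a-5p in FaDu the same 38 genes had a median of -0.18, with 1 lowered. On the PC3 arrays with the other 3 miRNAs the medians were between -0.18 and -0.06. On the PANC-1 arrays they were -0.50 and -0.43, with 2 and 4 genes lowered, where 0.69% and 0.88% of all genes were lowered. No other array had more than 4 of the 38 genes lowered.

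**Figure D4:**
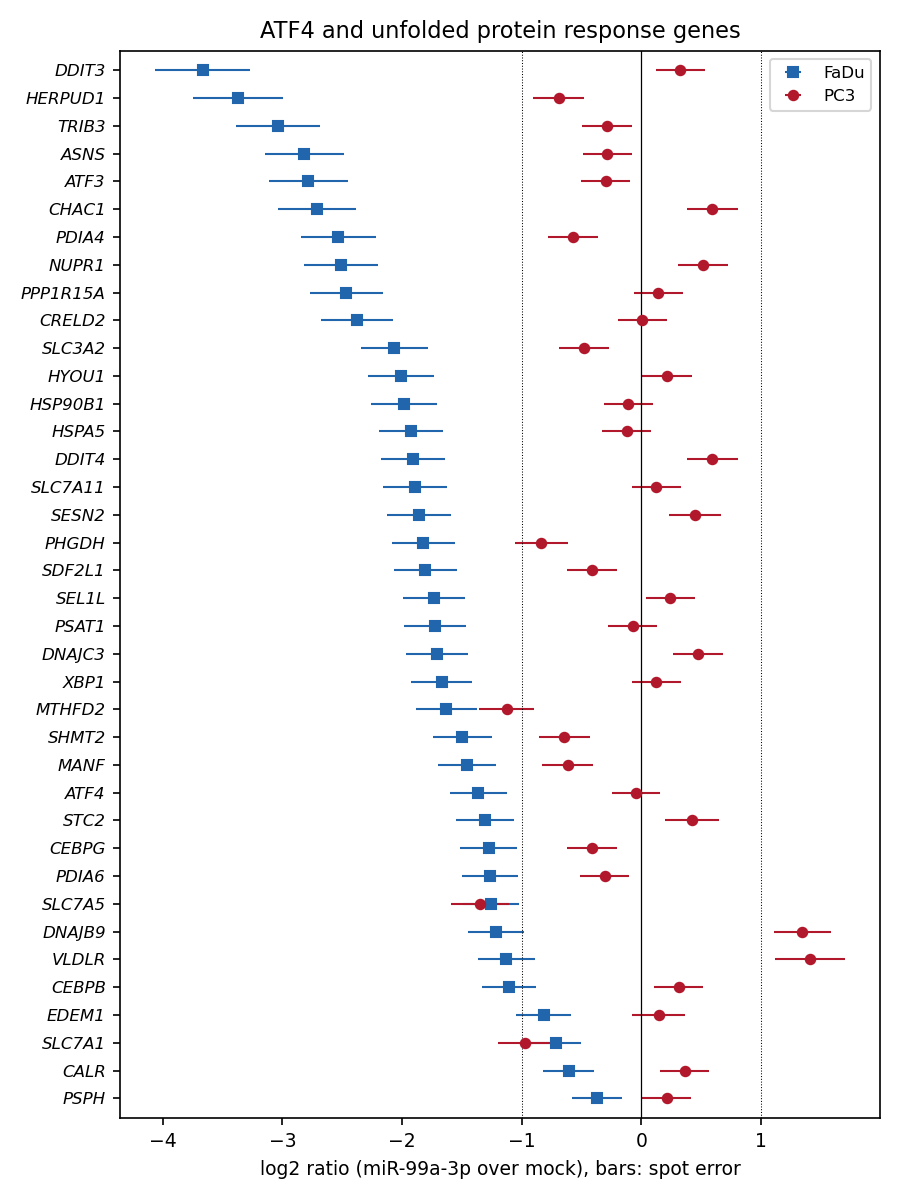
Log2 ratio of miR-99a-3p over mock cells for the 38 measured genes of the ATF4 and unfolded protein response list, in FaDu (squares) and PC3 (circles), ordered by the FaDu value, with bars for the spot error and dotted lines at 1 and -1. In FaDu 34 genes lie under -1 with a list median of -1.77, whereas in PC3 34 of the 38 lie between -1 and 1.

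Targets of NRF2, the transcription factor of the oxidative stress response, were also low in FaDu. Of 29 measured genes 14 were lowered there (48.3%, against 5.1% of all genes) and 3 raised (10.3% against 7.38%), with a median of -0.52, while 0 passed either threshold in PC3, where the median was 0.28. AKR1C1, an aldo-keto reductase, had -3.42 in FaDu and -0.26 in PC3, HMOX1, the inducible haem oxygenase, -3.04 and 0.10, and TXNRD1, a thioredoxin reductase, -1.33 and 0.36. SLC7A11 is on both this list and the ATF4 list. NQO1 (-0.09 in FaDu) and GCLM (-0.19), also textbook targets of NRF2, were not lowered, and CBR3 (1.60) was raised. The median on the miR-99a-5p array of FaDu was -0.14.

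The list of lysosome and autophagy genes was higher in PC3 than in FaDu by its median. In PC3 34 of 39 measured genes had a positive ratio, with a median of 0.43, and 2 passed 1 (5.13%, against 2.98% of all genes), GABARAPL1 and GRN (1.41), the progranulin gene. In FaDu the median was -0.04, with 8 lowered (20.5%, against 5.1% of all genes) and 3 raised (7.69% against 7.38%). The 8 were led by the autophagy genes WIPI1 (-2.42), MAP1LC3B (-1.94), ULK1 (-1.93), SQSTM1 (-1.43) and GABARAPL1, whose PC3 ratios were 0.82, 0.35, 0.58, 0.41 and 1.23. Lysosomal genes were also among the 8, at -1.19 to -1.04, while the autophagy genes ATG9A (-0.04) and NBR1 (-0.19) lay near 0. The 3 raised in FaDu were CTSB, a lysosomal protease (1.33), GLA, a lysosomal galactosidase (1.27), and the autophagy gene UVRAG (1.07), with 0.87, -0.22 and 0.78 in PC3.

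Of 33 cholesterol genes 5 were raised in FaDu (15.2%, against 7.38% of all genes) and 1 in PC3 (3.03% against 2.98%), with medians of 0.34 and -0.07. Less the miR-99a-5p array the FaDu median was 0.04. INSIG1, which holds the SREBP factors in the endoplasmic reticulum, was raised in both lines (1.23 in FaDu and 1.15 in PC3). Of 21 TGF-beta and mesenchymal genes PMEPA1, an inhibitor of TGF-beta signalling, was raised in both (1.40 in PC3 and 1.35 in FaDu), although a further probe gave 1.27 and -0.35. Of 30 MAPK response genes AREG was lowered in both, while PHLDA1 (-1.08 in PC3 and 1.19 in FaDu) and EGR2 (1.35 and -1.13) were opposite. Of 19 squamous differentiation genes KRT80 was opposite (-1.09 and 1.05). Of all genes measured, 0.611% were raised in both lines and 0.343% lowered in both. A further 0.874% were lowered in PC3 and raised in FaDu, and 0.188% the reverse. The medians of the p53, hypoxia, solute carrier, ribosomal protein, TGF-beta, MAPK and squamous lists lay between -0.19 and 0.36 in PC3 and between -0.37 and 0.20 in FaDu.

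**Figure D5:**
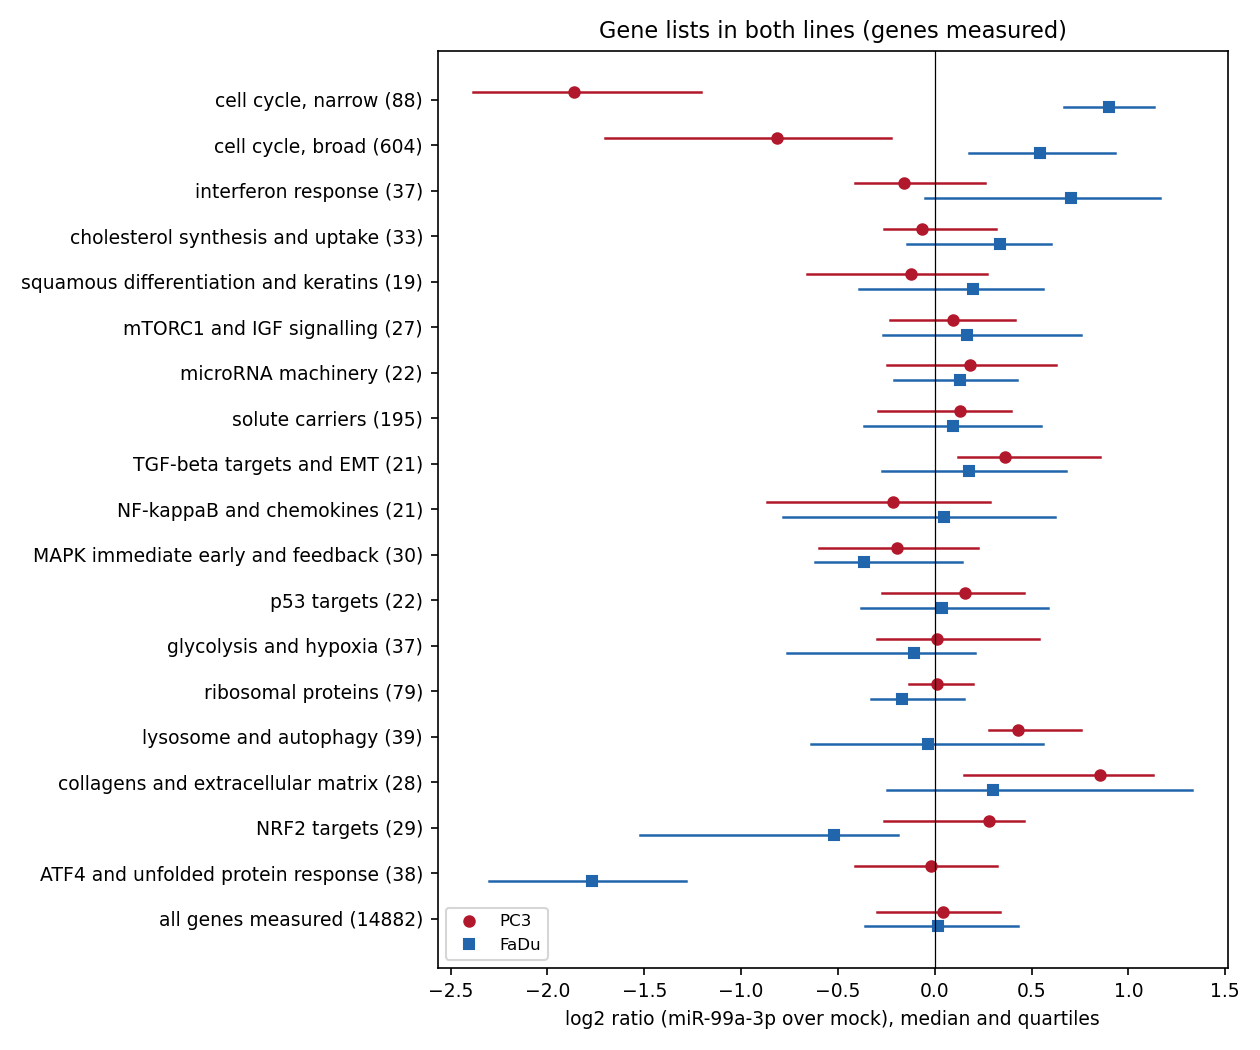
Median log2 ratio (symbols) and quartiles (lines) of each gene list in PC3 (circles) and FaDu (squares), ordered by the median difference between the lines, with the number of genes measured in brackets. The cell cycle lists lie low in PC3 and high in FaDu, the ATF4 and unfolded protein response list at -0.02 and -1.77, and the matrix list above 0 in both.

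The difference between the lines, PC3 minus FaDu, was over 2 for 194 genes (1.3%) and under -2 for 423 genes (2.84%), of which 1 and 227 were on the cell cycle list. Genes known only by a clone or accession name are left out of the order that follows. Outside the cell cycle list, the differences under -2 were led, after ERCC6L, by PLAT, the tissue plasminogen activator (-0.60 in PC3 and 3.52 in FaDu), CYTH4 (-1.13 and 2.96), COL8A1 (-0.72, or 0.11 less the other PC3 arrays, and 3.21) and NPR3, a natriuretic peptide receptor (-0.60 and 3.30). Those over 2 were led by AGR2, a disulfide isomerase of the endoplasmic reticulum, with 0.65 in PC3 and -3.74 in FaDu, a difference of 4.38. UNC5B, a netrin receptor, had 0.45 and -3.58, DDIT3 followed, and then DQX1 and ARG2, the mitochondrial arginase (0.80 and -2.61). Among those left out, lnc-C19orf26-2 lay between DDIT3 and DQX1, with 3.56 in PC3 and -0.18 in FaDu. Among these genes, ERCC6L, CYTH4 and DQX1 were opposite, lnc-C19orf26-2 was past 2 in PC3 alone, and the rest were past 2 in size in FaDu with a PC3 ratio within 1 of 0.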

How the data were processed

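The authors scanned 8 Agilent 2-colour arrays, designed on hg19, and ran Feature Extraction 10.7.3.1 on each scan. That software subtracted the background and normalized the dyes of each array to give the deposited intensities, with no scaling from array to array. It also gave the deposited log10 ratio, Cy5 over Cy3, and the spot error, which were multiplied here to the log2 scale. The log10 ratios deposited for the whole series differed from the scanner's by 0. Control spots and between 81 and 178 outlier spots per array were left out. Between 37.2% and 49.2% of gene spots per channel were well above background, which limits the measured genes. The combined error is the root of the summed squares of both spot errors. No test was run. Named genes were the leading 12 raised in both lines, 12 of each opposite direction, 8 lowered in both and 5 largest differences per direction, by the smaller absolute ratio or the difference, with clone names left out (5, 3, 8 and 5 of the classes raised, lowered, opposite lower and opposite higher in PC3). Some of these genes are not reported here. Other members, named for a known role, were chosen after their values were seen. The members and the lists were chosen with earlier results of these data known. The RefSeq table of GRCh38.p14 held 11711 of the 12025 probes with a RefSeq name, 922 of them under a newer symbol. Alternatives were normexp (offset 50) and loess in limma 3.58.1 (R 4.3.3), the series values, a filter on at least 1 channel, mean over probes, brightest probe over the 2 arrays, flagged spots kept, centring, subtraction of the line's other arrays, other thresholds, a narrow cell cycle list and, chosen after seeing the data, the spot error as a margin. The limma step and the classes were tested on simulated data. All else ran in Python 3.11.15 with numpy 2.4.6 and pandas 2.3.3.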

Additional observations from a re-analysis of the deposited data

Results flagged for a closer look

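Of the 45 and 28 genes outside the cell cycle list that moved past 1 in opposite directions on the single arrays of PC3 and FaDu, the 23 leading named ones are given here. These differences between the lines were not tested, since each line has 1 array.

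The log2 differences (PC3 minus FaDu) of genes lowered in PC3 and raised in FaDu were -4.27 for ERCC6L, -3.59 for C9orf40, -3.11 for CALML4, -3.54 for SH3PXD2A-AS1, -2.85 for SLCO4A1 and -3.37 for SNORD86. They were -3.86 for C15orf48, -3.20 for TYMSOS, -3.04 for LINC00618, -3.33 for CXCL1 and -2.54 for MYLK2, whose FaDu ratio of 1.22 was -0.21 less the miR-99a-5p array.

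The log2 differences of genes raised in PC3 and lowered in FaDu were 3.35 for LYRM9, 3.15 for LY96, 2.93 for AASS, 3.36 for RASD1, 3.01 for ADM and 3.45 for DQX1. They were 2.75 for PNRC1, 2.77 for LINC00087, 2.63 for GABARAPL1, 2.56 for DNAJB9, 2.54 for SLC30A1 and 2.46 for ZSCAN31. A further LINC00087 probe gave 0.01 in PC3 and 0.03 in FaDu, and another 1.34 and -0.996. The combined spot errors of these 23 differences were at most 0.49.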

How the results depend on the processing

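No paired analysis was possible because there is only 1 array for every condition. The counts are given in the order raised in both, lowered in both, opposite outside the cell cycle and lower in PC3, opposite and higher in PC3, and differences over 2 in size, which were 91, 51, 45, 28 and 617 as reported. Normexp and loess gave 35, 31, 20, 10 and 350. A filter on at least 1 channel gave 121 raised and 122 lowered in both, 89 and 63 opposite and 1028 differences, so that the raised share of the shared changes was 49.8% in place of 64.1%. A threshold of 0.58 (1.5 for the difference) gave 560, 295, 299, 198 and 1246, and one of 1.5 (3 for the difference) gave 13, 4, 4, 1 and 140. Beyond the threshold by more than the spot error were 39, 17, 11, 8 and 367. Less the other arrays of the line, 22 and 18 were opposite, and the narrow cell cycle list left 101 opposite and lower in PC3. The correlation over all genes, 0.0031, was -0.014 with the mean over probes and 0.069 less the other arrays of the line. The other 36 values of these counts and this correlation stayed within 1.5 times, or within the interval of the correlation. A count within that range can hold other genes. Less the other arrays of the line, 76 were raised and 35 lowered in both, of which 34 and 24 were among the 91 and 51, and the 22 and 18 opposite genes held 13 of the 45 and 12 of the 28. With the mean over probes, 73 of the 91 were still raised in both.

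Less the other arrays of its line, the ratio of COL8A1 in PC3 was 0.11 in place of -0.72, and that of MYLK2 in FaDu was -0.21 in place of 1.22, which are the reversals among 784 values of the 49 named genes. A further 114 of these values moved by more than the spot error, 52 of them less the other arrays of the line, 49 under normexp and loess, 11 with the mean over probes and 2 with the brightest probe over both arrays. The cause was not tested. Of the list medians, 279 of 288 moved by less than the spot error of their members. Of the other 9, 8 were less the other arrays of the line, among them the FaDu medians of the interferon (0.18 in place of 0.70), cholesterol (0.04 in place of 0.34) and glycolysis and hypoxia lists (-0.43 in place of -0.11). Precision is limited by 1 array per condition, and dim genes by background.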

Other observations

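2 lists of genes known as targets of other microRNAs were written after the values were seen, and are given as values only. Of 18 measured genes that miR-29 is known to target, matrix genes and PXDN among them, 9 were raised in PC3 and 7 in FaDu, with 0 lowered in either. Of these, 6 were raised in both (COL1A1, COL4A1, COL4A2, COL5A1, NREP and PXDN). The medians were 1.10 and 0.85, and between -0.01 and 0.23 on the other 6 arrays. Of 23 measured genes that let-7 is known to target, DICER1, HMGA2 and IGF1R were raised in both lines, and the medians were 0.28 in PC3 and 0.48 in FaDu, and between 0.05 and 0.28 on the other 6 arrays. Since members of both lists were picked knowing their ratios, the counts do not stand as evidence about the lists.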
